A study of Mus musculus with 6 samples.

Results

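Cluster 7 of the deposited clustering is a group of neutrophils with a high share of mitochondrial RNA. Its members were the cells that the authors' table of kept cells numbers 7 at the clustering resolution of 0.1, taken from all 6 libraries, and there were 890 of them among 69776 kept cells (1.28%) and 74091 barcodes. The number of a cell in the table is the only thing that made it a member. The libraries were 10x Genomics 3′ single-cell RNA libraries of CD11b+ bone marrow cells, selected with CD11b microbeads. The mice were C57BL/6 and 2 months old, 3 samples came from the femur and 3 from the mandible, and no other treatment or genotype was named. Femur marrow was flushed from the long bones, which the labels give as femurs and tibiae and the study's methods as femurs. The molars were taken out of the mandibles and their sockets washed before the jaw's marrow was collected. Femur replicate 1 was labelled female and the other 5 libraries male. How many mice were pooled in a sample was not stated, so the p-values below measure only the spread between these libraries, which may be technical.

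Neutrophils are made in the marrow through a fixed order of stages. Precursors that still divide carry primary granule proteins such as elastase, the next cells make secondary granule proteins such as lactoferrin, and later cells make gelatinase granule proteins and then the receptors and cytokine messages of mature neutrophils. Mitochondrial DNA encodes a small set of subunits of the respiratory chain, which are made inside the organelle, while all other subunits are encoded in the nucleus. Mature neutrophils draw much of their energy from glycolysis and hold few mitochondria. A limit on the mitochondrial share of RNA is a routine filter in single-cell data.

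The cluster held 141, 172 and 278 cells in femur replicates 1 to 3 and 94, 101 and 104 cells in mandible replicates 1 to 3. Summed over these cells, a library had between 668375 and 2375267 UMIs, where a UMI is 1 counted RNA molecule. The median cell had 5719.5 UMIs and 1663 genes. Cluster 7 of femur replicate 1 stood apart. Its median cluster 7 cell had 2604 UMIs, against 5350 to 7461.5 in the other libraries, and 2332 of its 12587 barcodes had been removed by the authors, against 322 to 436 elsewhere. Of the 890 barcode sequences, 12 also occurred in another library, where 11 of them marked a kept cell.

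The neutrophil label was checked against marker genes. S100a8 and S100a9, the subunits of calprotectin, measured 105088 ± 23217 and 120031 per 1000000 non-mitochondrial UMIs of the same cells (SD, n = 6 libraries), the scale used for every level below unless CPM is named. In clusters 0 to 4, the neutrophil clusters led by granule and maturation genes and summed here as the comparison, they measured 133877 and 152054. The list of 9 general neutrophil genes that holds them summed to 24.0% of non-mitochondrial UMIs in cluster 7 and 30.2% in clusters 0 to 4, with 5 genes lower and 2 higher in 6 of 6 libraries and a median log2 ratio of -0.29. Of those 2, Itgam, which encodes CD11b itself, measured 992 ± 168 in cluster 7 and 860 ± 124 in clusters 0 to 4. The deposited ImmGen reference labels called 854 of the 890 cells neutrophils (96.0%) and 7 monocytes (0.787%). Another set of deposited reference labels, from a general mouse RNA collection, called 676 of the 890 cells granulocytes (76.0%) and 184 monocytes (20.7%). Defining markers of other types were low. The monocyte list summed to 0.086% of non-mitochondrial UMIs in cluster 7 and 0.087% in clusters 0 to 4, the B cell list to 0.016% and 0.007%, and the macrophage list to 0.019% and 0.009%. Eosinophil or basophil, T or NK and platelet lists summed to 0.001%, 0.002% and 0.002% in cluster 7. The erythroid list, of which haemoglobin is the main part, stood at 0.081%, with a range of 0.007% to 0.355% over the libraries, against 0.010% in clusters 0 to 4. The other clusters were formed from the same genes, so every comparison of cluster 7 with them is a description with no test.

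Mitochondrially encoded UMIs made up 8.60%, 7.24% and 6.61% of the summed UMIs of cluster 7 in femur replicates 1 to 3 and 8.44%, 8.08% and 8.55% in mandible replicates 1 to 3. In clusters 0 to 4 of the same libraries the shares were 0.914%, 0.735%, 0.526%, 0.800%, 0.701% and 0.763%. The difference was thus present in each library, and no value of cluster 7 came near a value of clusters 0 to 4. Among the other clusters, the B cells of cluster 6 came nearest, with a mean of 2.65% and at most 3.75% in any library. The monocyte-rich cluster 5 had 1.77% and the dividing precursors of cluster 4 had 1.17%. The later neutrophil clusters 1, 2 and 3 had 0.525%, 0.432% and 0.372%. Relative to the non-mitochondrial UMIs of the same cells, the ratio of cluster 7 to clusters 0 to 4 was 3.54 ± 0.15 on the log2 scale, which is 11.6-fold, and between 3.35 and 3.74 in the 6 libraries.

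**Figure D1:**
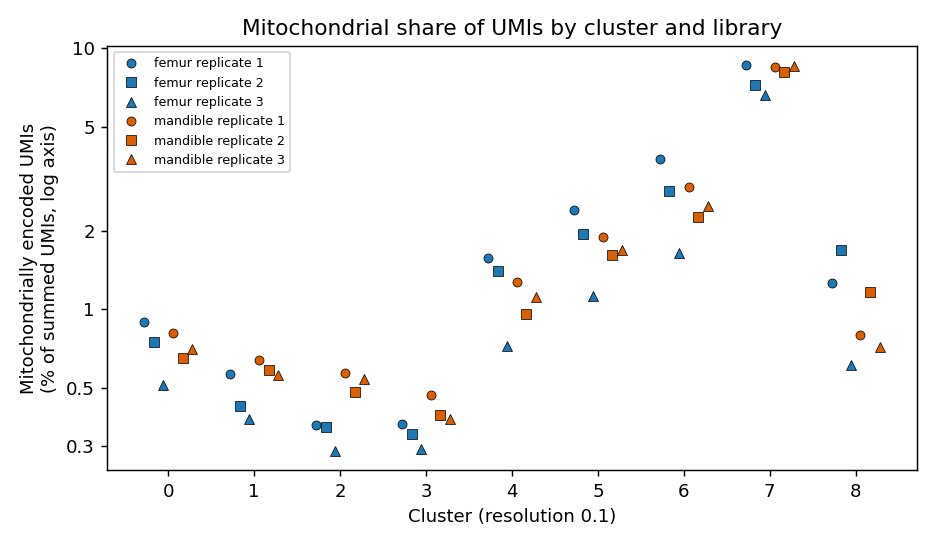
Mitochondrially encoded UMIs in percent of all summed UMIs, on a log axis, for each cluster and library, with femur libraries in blue and mandible libraries in orange. The 6 points of cluster 7 lie between 6.61% and 8.60%, and the highest point of any other cluster is 3.75%, in cluster 6.

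Single cells of the cluster ranged widely. Their mitochondrial share ran from 1.20% to 19.8%, the upper end being set by the authors' limit of 20%, with quartiles at 4.74% and 10.3%. Only 6 cells lay under 2% and 92 lay over 15%. The cluster also held most of the high cells. Of 746 cells over 5% in clusters 0 to 4 and 7 together, 635 were in cluster 7 (85.1%) and 111 were in the 60249 cells of clusters 0 to 4. Within a library, the mitochondrial share had a Spearman correlation between 0.066 and -0.332 with the non-mitochondrial UMIs of a cell, while mitochondrial and non-mitochondrial UMIs rose together with correlations of 0.648 to 0.843. These describe the 94 to 278 cells of a library, which share capture and depth. Cluster 7 cells were somewhat shallower than clusters 0 to 4, whose median depth lay between 6649.5 and 9330.5 UMIs. Whether depth has a part in the high share was not tested.

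All 13 protein-coding mitochondrial genes were higher in cluster 7 in 6 of 6 libraries, but by unequal amounts. The 3 largest ratios belonged to subunits of complex I, which takes electrons from NADH, though its other 4 subunits lay in the range of the rest. mt-Nd1 (chromosome M 2751 to 3707, mm10) measured 5626, 4826, 4523, 5672, 5658 and 6469 per 1000000 non-mitochondrial UMIs in cluster 7, in the order femur replicates 1 to 3 and mandible replicates 1 to 3. In clusters 0 to 4 it measured 309, 242, 167, 299, 274 and 349. The lowest cluster 7 library was thus far above the highest comparison library, and the mean ratio was 20.3-fold. mt-Nd2 (chromosome M 3914 to 4951) had the largest ratio of the 13, at 21.9-fold, with 4123 ± 622 per 1000000 in cluster 7. mt-Nd3 had 18.5-fold, and mt-Nd4, mt-Nd4l, mt-Nd5 and mt-Nd6 had 14.0-, 12.7-, 10.6- and 9.92-fold.

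mt-Cytb (chromosome M 14145 to 15288), the only mitochondrially encoded subunit of complex III, measured 7175, 6482, 7223, 8781, 11395 and 13053 per 1000000 in cluster 7 and 567, 484, 374, 619, 609 and 708 in clusters 0 to 4. It was 15.9-fold higher, and its mandible libraries lay above its femur libraries in both sets of cells. The ATP synthase subunits mt-Atp6 (chromosome M 7927 to 8607) and mt-Atp8 were 13.3-fold and 10.1-fold higher. mt-Atp6 measured 14023 ± 1991 in cluster 7 and 1069 ± 242 in clusters 0 to 4. Cytochrome c oxidase, the last complex of the chain, had the gene with the smallest ratio. mt-Co3 was 11.3-fold, mt-Co2 10.0-fold and mt-Co1 (chromosome M 5328 to 6872) 7.58-fold higher. Some of these genes overlap in the mitochondrial genome. mt-Atp8 and mt-Atp6 share 43 bases, mt-Nd4l and mt-Nd4 share 7, and mt-Nd5 and mt-Nd6 share 14 on opposite strands. Whether counting used the strand was not stated. A short tag does not separate the mitochondrial genes from copies of them in the nuclear genome.

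The make-up of the mitochondrial RNA differed as well as its amount. mt-Co1 supplied 16.7% ± 0.849 of the mitochondrial UMIs of cluster 7 (15.4% to 17.6% over 6 libraries) and 25.6% ± 1.71 of those in clusters 0 to 4 (24.7% to 29.1%), so that no cluster 7 library reached the lowest comparison library. mt-Co2 (14.6% and 17.0%) and mt-Co3 (19.9% and 20.5%) were lower in 6 of 6 libraries by smaller margins. mt-Nd1 supplied 6.34% ± 0.327 against 3.65% ± 0.514, mt-Nd2 4.78% ± 0.285 against 2.54%, and mt-Nd3 2.80% against 1.75%. mt-Nd4, mt-Cytb and mt-Atp6 were also higher in 6 of 6 libraries, with 5.75%, 10.4% and 16.3% in cluster 7 and 4.74%, 7.54% and 14.3% in clusters 0 to 4. These shares are free of the total amount of mitochondrial RNA, though they must sum to a fixed whole.

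**Figure D2:**
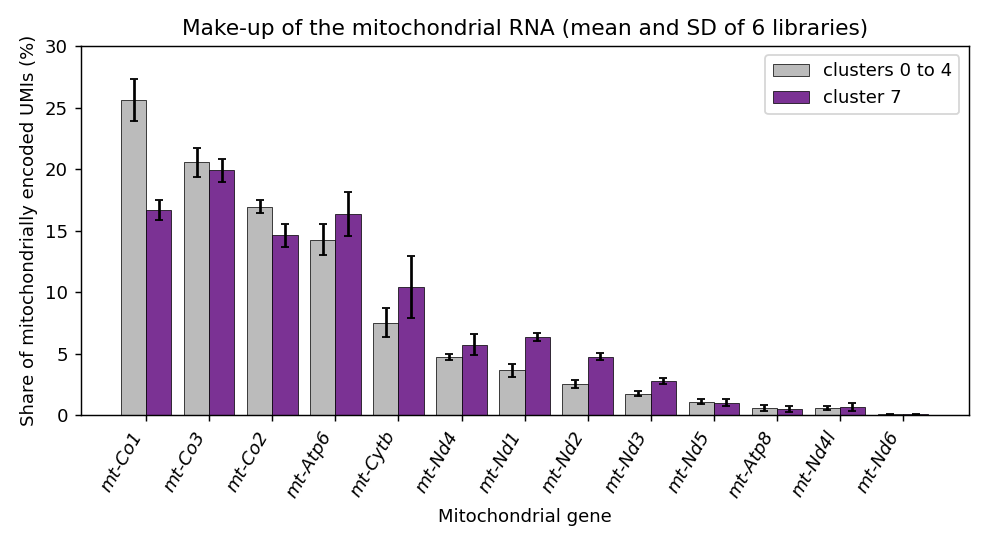
Share of each of the 13 mitochondrial genes in the mitochondrially encoded UMIs, in percent, with bars for the mean and lines for the SD of 6 libraries, in grey for clusters 0 to 4 and purple for cluster 7. mt-Co1 goes from 25.6% in clusters 0 to 4 to 16.7% in cluster 7, while mt-Nd1 goes from 3.65% to 6.34%.

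The same make-up appeared in other cells and barcodes with much mitochondrial RNA. The 111 cells of clusters 0 to 4 with over 5% mitochondrial UMIs had 17.7% ± 1.48 of them from mt-Co1. The 573 barcodes at 20% or more among those the authors had removed had 15.1% ± 0.767. These barcodes had a median of 880 UMIs and 155 genes, and only 91 of them had over 600 genes. Within cluster 7, the 254 cells under 5% had 18.0% ± 1.21 and the 230 cells over 10% had 16.0%. By cluster, mt-Co1 supplied 28.1%, 23.5%, 26.8%, 30.9% and 23.2% in clusters 0 to 4, 20.4% in cluster 5, 16.9% in cluster 6 and 29.0% in cluster 8. The B cells of cluster 6 therefore had the low mt-Co1 share of cluster 7 at a lower mitochondrial total. mt-Nd1 ran the other way, with 2.70% to 4.47% in clusters 0 to 4, 5.70% in cluster 6 and 6.45% in the high cells of clusters 0 to 4.

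Which stage of neutrophil maturation the cells resemble was addressed with their non-mitochondrial genes. Each cell was given the cluster, among 0 to 6 and 8 of its own library, whose gene profile made its non-mitochondrial UMIs most likely. Cluster 4 holds dividing precursors, cluster 0 cells rich in secondary granule genes, cluster 3 cells rich in gelatinase granule genes, cluster 2 cells rich in stefin genes and cluster 1 cells rich in Il1b. Of the 890 cells, 383 were closest to cluster 1 (43.0%), 203 to cluster 0 (22.8%), 138 to cluster 2 (15.5%), 75 to cluster 3 (8.43%) and 31 to cluster 4 (3.48%). The remaining 37 were closest to cluster 5, 10 to cluster 6 and 13 to cluster 8. Thus 596 cells (67.0%) matched the later clusters 1 to 3, and 830 (93.3%) matched clusters 0 to 4. When cells of a known cluster were held out and matched in the same way, between 51.8% (cluster 2) and 93.3% (cluster 4) returned to their own cluster, so neighbouring stages are separated only in part.

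The libraries differed in this mix. Clusters 1 to 3 together took 37.6% of cluster 7 in femur replicate 1 and 64.4% to 80.8% in the other 5 libraries. Femur replicate 1, whose cluster 7 cells were shallow while its clusters 0 to 4 had the highest median depth of the 6 libraries, supplied 26 of the 31 cells matched to cluster 4 and 11 of the 13 matched to cluster 8. Without it the share matched to clusters 1 to 3 was 72.5%. The 91 cells matched to clusters 4, 5, 6 or 8 were themselves shallow, with a median of 2226 UMIs and a mitochondrial share of 11.7%. Cells matched to clusters 0 to 3 had 6163 UMIs and 6.41%. With every cell thinned to 1000 non-mitochondrial UMIs, cluster 4 took 19.4% of the cells of femur replicate 1, against 18.4% before. The match of a cell was the same in 81.1% of cells when the profiles came from the other 5 libraries and in 97.6% when ribosomal protein genes were left out. It was also the same in 92.8% of the 878 cells that could be thinned to 1000 non-mitochondrial UMIs.

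By profiles of their own library, cluster 7 held more cells of the Il1b-rich kind than the neutrophils at large. Among matches to clusters 0 to 4, cluster 1 took 44.7% ± 12.3 of cluster 7 cells and 24.7% ± 3.70 of held-out cells of clusters 0 to 4 matched alike. It was higher in 6 of 6 libraries, though in femur replicate 1 only at 23.4% against 22.5%. Cluster 3 took 9.07% against 15.9% and was lower in 6 of 6. Cluster 4 took 4.14% against 13.2% and was lower in 5 of 6, femur replicate 1 being the exception. Clusters 0 and 2 took 25.6% and 16.5% of cluster 7 against 28.9% and 17.3%, and each was higher in cluster 7 in 2 of 6 libraries. With profiles from the other 5 libraries, cluster 1 took 24.8% and 26.0% of all cluster 7 cells in mandible replicates 2 and 3. With own profiles it took 42.6% and 37.5%. It also fell in femur replicate 3 and mandible replicate 1 and rose in femur replicates 1 and 2. Cluster 3 took 22.8% and 13.5% in mandible replicates 2 and 3, against 12.9% and 5.77%, and fell only in femur replicates 1 and 2. Held-out cells were not matched to those profiles.

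**Figure D3:**
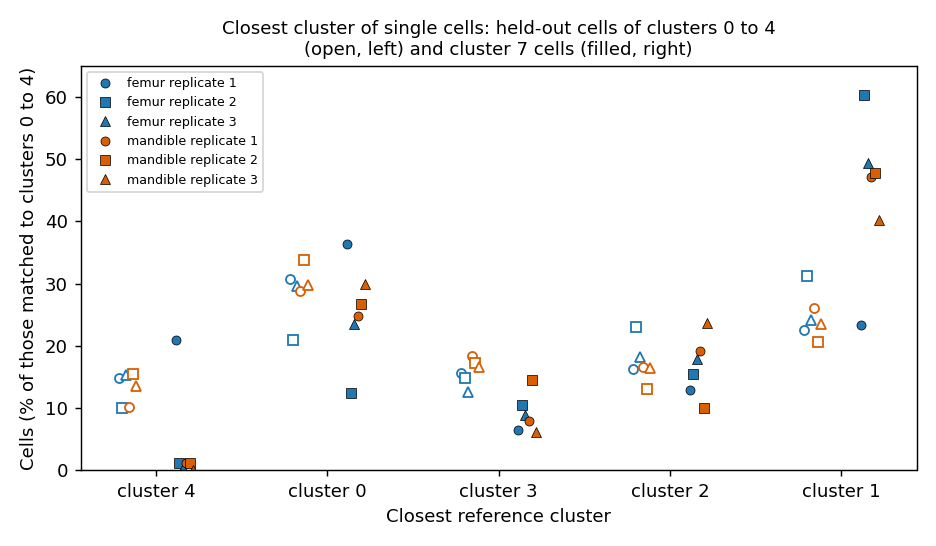
Percent of cells closest to each of clusters 4, 0, 3, 2 and 1, with 1 point a library. Open symbols are held-out cells of clusters 0 to 4 and filled symbols are cells of cluster 7. The clusters run from precursors to mature cells, and the order of clusters 2 and 1 was not tested. Cluster 1 takes a mean of 44.7% of cluster 7 and 24.7% of held-out cells, and femur replicate 1 is the only cluster 7 library well above 0 at cluster 4.

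The excess of mitochondrial RNA was present at each stage. Cluster 7 cells matched to cluster 0 had 6.45 to 12.2 times the mitochondrial share of that cluster in the 6 libraries. Those matched to clusters 1, 2 and 3 had 14.7 to 18.9, 14.3 to 22.9 and 13.9 to 25.4 times. Their mean mitochondrial shares were 6.71%, 9.04%, 7.65% and 6.94% for clusters 0, 1, 2 and 3. Depth was near or above that of the matched cluster in 5 of the libraries but not in femur replicate 1. Over all libraries the median was 10216 UMIs for cluster 7 cells matched to cluster 0, whose own cells had 11168, and 4493 for those matched to cluster 1, whose own cells had 4591. For clusters 2 and 3 the pairs were 6425.5 and 5757, and 7929 and 7000. In femur replicate 1 the matched cells had 2319 UMIs against 13212.5 for cluster 0, 2941.5 against 7106.5 for cluster 2 and 2893 against 9470.0 for cluster 3, and 4927 against 6153.5 for cluster 1. Over all libraries, cells matched to clusters 4 and 5 had 2582 and 1571 UMIs against 21561 and 10085. The mt-Co1 share was 17.1%, 16.4%, 16.2% and 15.9% in cells matched to clusters 0, 1, 2 and 3, all below those clusters' own values.

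The stages were also read from gene lists in the summed counts. A mix of the other clusters' profiles in the proportions of the matches, chosen as a comparator after the data had been seen, is given beside clusters 0 to 4. The matches were made on the same non-mitochondrial UMIs, so nearness to the mix is no independent result. As a background for the counts that follow, of 6645 non-mitochondrial genes of at least 10 per 1000000, 29.3% were higher and 12.7% lower than in clusters 0 to 4 in 6 of 6 libraries, 13.8% were higher and 2.77% lower than in the mix, and the median log2 ratio to clusters 0 to 4 was 0.15. Cell cycle genes summed to 0.045% ± 0.031 of non-mitochondrial UMIs in cluster 7, 0.173% in clusters 0 to 4 and 0.038% in the mix, and all 12 were lower than in clusters 0 to 4 in 6 of 6 libraries. The sum was 0.593% in cluster 4, 0.027% in cluster 0 and 0.008% to 0.011% in clusters 1 to 3. Top2a, a topoisomerase of dividing cells, had 94.2 per 1000000 against 247, with femur replicate 1 at 301 and the other libraries at 15.8 to 99.3. The authors' phase calls placed 794 cells in G1 (89.2%), 49 in S and 47 in G2M.

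The primary granule list, which also holds the transcription factor genes Cebpe and Gfi1, summed to 0.0515% in cluster 7, 0.153% in clusters 0 to 4 and 0.0386% in the mix. The sum was 0.456% in cluster 4, 0.063% in cluster 0 and 0.007% to 0.012% in clusters 1 to 3. The median log2 ratio of the 8 genes to the mix was 0.64. Of the list's genes, 6 of 8 were lower than in clusters 0 to 4 in 6 of 6 libraries. Elane, which encodes neutrophil elastase, measured 130, 109, 6.76, 19.2, 37.4 and 27.2 per 1000000 in cluster 7 and 179 to 524 in clusters 0 to 4. Mpo, myeloperoxidase, behaved differently within the list. It measured 82.9 per 1000000 in cluster 7, 84.3 in clusters 0 to 4 and 8.51 in the mix, and was above the mix in 6 of 6 libraries, by 7.64-fold on average. Its cluster 7 values were 174, 114, 4.51, 49.6, 70.0 and 86.1 per 1000000, lowest in femur replicate 3.

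The secondary granule list also holds genes of the same stage such as Itgb2l, Ifitm6 and Abca13. It summed to 4.88% ± 1.503 in cluster 7, between the 10.5% of cluster 0 and the 0.921% to 2.98% of clusters 1 to 3, and close to the 5.04% of the mix. Femur replicate 1 was highest at 7.13% and femur replicate 2 lowest at 2.61%. Camp, the precursor of the cathelicidin peptide, measured 14586, 7033, 14396, 10403, 14156 and 11991 per 1000000 in cluster 7 and 20389 to 28225 in clusters 0 to 4, a ratio of 0.48. Ltf, lactoferrin, measured 6687 ± 2828 against 7814 ± 1026, and Ngp and Lcn2 had ratios of 0.63 and 0.70.

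The gelatinase (tertiary) granule list holds Mmp8 and Mmp9 and, as genes of the same stage, Retnlg, Ly6g, Padi4 and Slc27a2. It summed to 1.65% ± 0.389, against 1.42% in clusters 0 to 4, 1.90% in the mix and 3.65% in cluster 3. Most of the sum in cluster 7 was Retnlg, so it is no measure of gelatinase itself. Mmp9, gelatinase B, measured 1851 ± 276 against 1471 ± 309 per 1000000 and was higher in 6 of 6 libraries. Retnlg measured 11264 ± 3086 against 9688 ± 1757, and was below the mix value of 13612 in 6 of 6. The stefin list holds genes of stefins, cysteine protease inhibitors that mark cluster 2, and the chemokine gene Ccl6. It summed to 0.217%, 0.156% and 0.249% in cluster 7, clusters 0 to 4 and the mix. Of its 8 genes, 7 were present in the matrices.

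Of the 6 stage lists, that of Il1b-rich mature genes had the highest median log2 ratio to clusters 0 to 4, at 0.70. It summed to 0.975% ± 0.197 in cluster 7, 0.574% in clusters 0 to 4, 0.879% in the mix and 1.59% in cluster 1, and 11 of 12 genes were higher than in clusters 0 to 4 in 6 of 6 libraries. Il1b, the cytokine interleukin 1 beta, measured 1614, 1572, 1244, 623, 791 and 711 per 1000000 in cluster 7 and 715, 601, 445, 333, 234 and 185 in clusters 0 to 4. Every cluster 7 value was above that of its own library's clusters 0 to 4, by 2.71-fold on average, and femur libraries were above mandible libraries in both. Il1r2, the decoy receptor for interleukin 1, was 1.97-fold higher, Csf3r, the receptor for granulocyte colony-stimulating factor, 1.98-fold, and the chemokine receptor Cxcr2 1.59-fold. Against the mix these ratios were 1.43, 1.19, 1.23 and 1.05 for Il1b, Il1r2, Csf3r and Cxcr2.

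**Figure D4:**
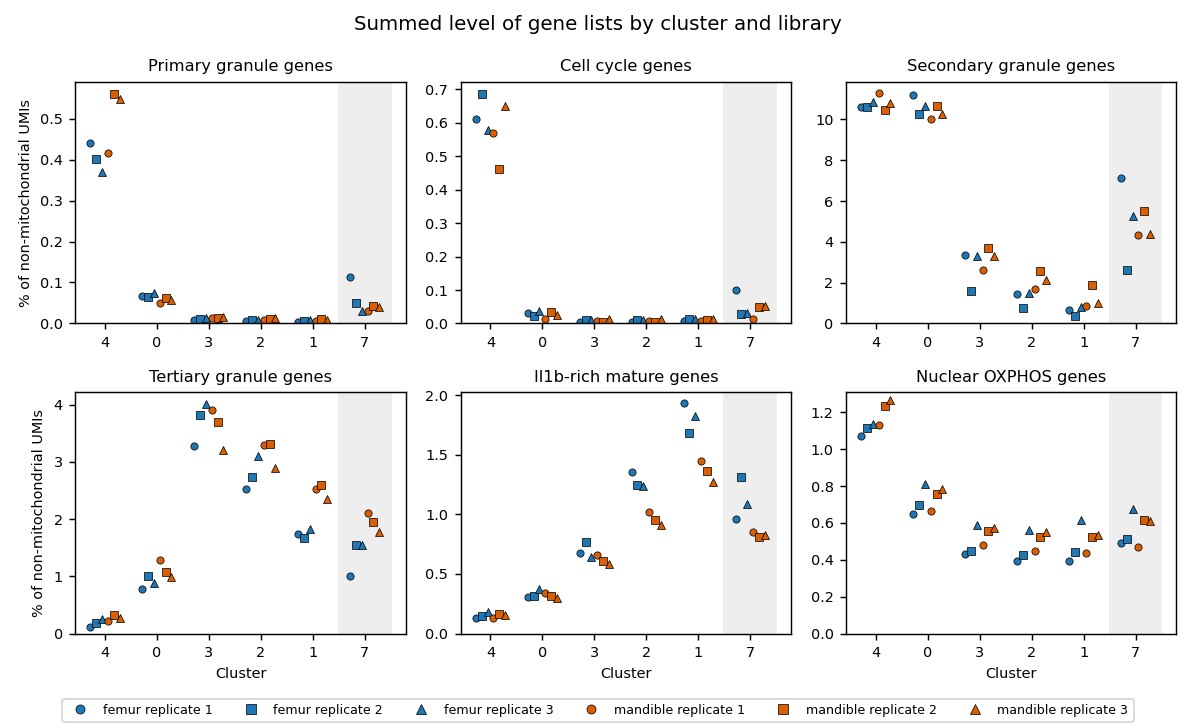
Summed level of 6 gene lists in percent of non-mitochondrial UMIs, each panel on its own linear axis from 0, for clusters 4, 0, 3, 2, 1 and 7 (shaded), with 1 point a library. Cluster 7 lies far below cluster 4 and, by its mean, above clusters 1 to 3 for the primary granule and cell cycle lists (means 0.0515% and 0.045%), lies between cluster 0 and clusters 1 to 3 for secondary granule genes (mean 4.88%), and has a mean of 0.975% for Il1b-rich mature genes.

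Among genes of at least 100 per 1000000 in cluster 7 or the mix, cluster 7 was compared with its matched mix, whose proportions were fitted to the same UMIs, so that the closeness of the whole profile is in part built in. Of these 1554 genes, 99.8% lay within 2-fold of the mix, 0 lay more than 2-fold below it and 3 lay above, namely Gm26917 (7.58-fold), Col1a1 (7.28-fold) and Amelx (2.91-fold as the mean over 6 libraries). Amelx was at 0 in cluster 7 of the 3 femur libraries and measured 181, 498 and 163 per 1000000 in mandible replicates 1 to 3, against 41.7, 10.6 and 46.0 in the mix. Mpo, 7.64-fold above the mix, lies under that level. Against clusters 0 to 4, 95.8% of 1626 genes at the same minimum lay within 2-fold, with a median log2 ratio of 0.28, and 54.2% of them were higher in cluster 7 in 6 of 6 libraries and 15.7% lower. The mean correlation of log2 levels over genes was 0.926 with cluster 2, 0.916 with cluster 1, 0.913 with cluster 3, 0.898 with cluster 0, 0.640 with cluster 4 and 0.480 with cluster 6. Cluster 2 was the closest in 5 libraries and cluster 0 in femur replicate 1. These correlations are over genes of the same libraries, and their order among clusters 0 to 3 was narrow. The mitochondrial ratio against the mix was 3.79 ± 0.22 on the log2 scale, or 13.8-fold.

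Among non-mitochondrial genes of at least 100 per 1000000, the 10 highest ratios to clusters 0 to 4 belonged to Col1a1, Gm26917, Hba-a1, Amelx, Hba-a2, Hbb-bs, Il1b, Ptgs2, Fgl2 and Egr1. Col1a1, the alpha 1 chain of type I collagen, was 9.11-fold higher on average, with log2 ratios from 0.31 in femur replicate 1 to 6.09 in mandible replicate 2, where 1 cell held 85.5% of it. Gm26917, a noncoding RNA gene, measured 566, 322, 75.7, 165, 89.5 and 46.8 per 1000000 against 20.3 to 40.2. Ptgs2, the inducible prostaglandin synthase, was 2.58-fold and Fgl2 2.46-fold higher. The haemoglobin genes rested on few libraries. Hbb-bs measured 1885 per 1000000 in mandible replicate 1, 309 in femur replicate 1 and 26.6 to 49.8 in the other 4. The 10 lowest ratios belonged to Hist1h1b, Hist1h2ae, Elane, Ube2c, Hist1h2ap, Prtn3, Stmn1, Pclaf, Hist1h4d and Tuba1b. All but the granule proteases Elane and Prtn3 are histone, cell division or tubulin genes. Hist1h1b, a linker histone of dividing cells, had a ratio of 0.076.

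Nuclear genes of the respiratory chain were not higher as a list. The list of 62 summed to 0.563% ± 0.083 of non-mitochondrial UMIs in cluster 7, 0.763% in clusters 0 to 4 and 0.618% in the mix, and to 0.482% to 0.513% in clusters 1 to 3. In 6 of 6 libraries 52 of the 62 were lower than in clusters 0 to 4 and 11 were lower than in the mix. Cox8a and Cox6c, nuclear subunits of cytochrome c oxidase, had ratios of 0.88 and 0.66, and Atp5e of the ATP synthase 0.75. The only gene of the list higher in 6 of 6 libraries was Sdha, a subunit of complex II, which has no mitochondrially encoded part, at 44.9 ± 6.35 against 38.3 ± 3.49 per 1000000. Genes that copy and maintain mitochondrial DNA and RNA summed to 0.009%, 0.012% and 0.009% in cluster 7, clusters 0 to 4 and the mix. Tfam, which packages mitochondrial DNA and acts in its transcription, had 2.11 against 5.37 per 1000000, a level that rests on few UMIs in cluster 7. Of the 17 genes of that list, 1 passed the filter on low counts in cluster 7. Genes of mitochondrial stress and mitophagy summed to 0.090%, against 0.074% and 0.089%, with 6 of 18 higher than clusters 0 to 4 in 6 of 6 libraries, near the 29.3% of genes at large. Its median log2 ratio of 0.28 equalled that of the genes of at least 100 per 1000000.

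Immediate early genes, which are transcribed within minutes of a stimulus, were higher in cluster 7 than in clusters 0 to 4 as a whole, but not than in clusters 1 and 2 by their means. The list summed to 0.959% ± 0.213, against 0.538% in clusters 0 to 4, 0.799% in the mix, 1.40% in cluster 1 and 0.972% in cluster 2, and 14 of 15 genes were higher than clusters 0 to 4 and 13 higher than the mix in 6 of 6 libraries, with a median log2 ratio of 0.84 to clusters 0 to 4. The AP-1 subunits Junb and Fos had 1.99-fold and 1.86-fold ratios, the phosphatase gene Dusp1 2.04-fold, the transcription factor gene Egr1 2.25-fold and Atf3 2.71-fold. Against the mix, Junb stood at 1.23-fold, Fos at 1.16-fold and Egr1 at 1.40-fold. Apoptosis genes summed to 0.119%, 0.082% and 0.106%, with 7 of 15 higher than clusters 0 to 4 in 6 of 6 libraries, which lies between the 29.3% and 54.2% of genes at the lower and higher minimum, and a median log2 ratio of 0.40. Among the 7 was Mcl1, which prolongs neutrophil life, at 1.58-fold. The list of nuclear-retained RNAs, which also holds Gm42418 and AY036118, summed to 2.31%, 1.61% and 2.08%, and to 2.88% in cluster 1. Where its RNAs lie in the cell was not tested. Malat1 measured 12795 ± 2875 in cluster 7, 9220 ± 1252 in clusters 0 to 4 and 18195 in cluster 1. Ribosomal protein genes summed to 2.01%, 3.07% and 2.33%, and 77 of 86 were lower than clusters 0 to 4 in 6 of 6 libraries.

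Whether the site of the marrow changes these cells was tested over libraries. Cluster 7 made up 1.36% ± 0.132 of kept femur cells and 1.20% ± 0.128 of mandible cells (SD, n = 3 each, 2-sided exact permutation test, p = 0.2), where the smallest p that 3 against 3 libraries can give is 0.10. The mitochondrial share of its UMIs was 7.48% ± 1.02 in femur and 8.36% ± 0.247 in mandible (exact permutation p = 0.4). The shares matched to each cluster gave adjusted exact permutation p-values of 0.914 to 1.0 over 8 clusters. None of these 3 kinds of value separated the 3 femur from the 3 mandible libraries as computed. Other ways of computing them did. The median mitochondrial share over cells was 7.42%, 6.44% and 5.84% in femur and 7.69%, 7.74% and 7.62% in mandible, a difference of 1.12 points with no overlap (exact permutation p = 0.1). With profiles taken from the other 5 libraries, cluster 2 matched 9.22%, 6.98% and 16.5% of femur and 22.3%, 16.8% and 24.0% of mandible cells of cluster 7 (exact permutation p = 0.1, not adjusted). Both p-values are the smallest this design allows.

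Of 5939 genes tested in the summed counts of cluster 7, 5 were called by edgeR at an adjusted p under 0.05 (0.0842% of genes, Benjamini-Hochberg over all of them), and all 5 were higher in mandible. At an unadjusted p under 0.05 there were 316 genes (5.32%), and the libraries of the 2 sites did not overlap for 638 (10.7%), of which 168 were higher (2.83%) and 470 lower (7.91%) in mandible. The 5 genes were Amelx, Ambn, Col1a1, Col1a2 and Col3a1. Amelx and Ambn encode amelogenin and ameloblastin, matrix proteins of developing enamel, and the other 3 encode chains of the fibrillar collagens of bone, dentin and connective tissue.

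Amelx (chromosome X 169176114 to 169187200, mm10) had 0 UMIs in the 3 femur libraries and 161, 306 and 108 UMIs in mandible replicates 1 to 3, which are 166, 458 and 149 UMIs per 1000000 UMIs (CPM). With 3 counts over the 4646130 femur UMIs as the limit that 0 allows, it was at least 377-fold higher in the pooled mandible cells (edgeR adjusted p = 0.00511). Mandible replicate 2 held 306 of the 575 mandible UMIs, so this limit leans on it. The UMIs were in 13, 19 and 15 cells, or 13.8%, 18.8% and 14.4% of the mandible cells, while 0 of 141, 172 and 278 femur cells allow shares of up to 2.13%, 1.74% and 1.08% with a UMI. These limits cover counting error only. The highest cell of each mandible library carried 79, 104 and 47 of the UMIs, and without it 84.6, 302 and 84.2 CPM remained. Ambn had 0 UMIs in the femur cells of cluster 7 and 123, 70.3 and 30.4 CPM in mandible, when pooled at least 123-fold more (edgeR adjusted p = 0.00820). Mandible replicate 1 held 119 of its 188 UMIs, so this limit leans on that library, where 1 cell held 80.7% of them. Of the other enamel genes, Odam had 62 UMIs in the mandible cells, Amtn 30, Enam 19, Mmp20 6, Klk4 4 and Odaph 0, and all had 0 in femur.

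Col1a1 (chromosome 11 94936224 to 94953042) measured 3.50, 16.3 and 10.9 CPM in femur replicates 1 to 3 and 119, 362 and 106 in mandible replicates 1 to 3, a log2 difference of 4.25 ± 0.57 (SE, edgeR adjusted p = 0.0157). A single cell held 85.5% of it in mandible replicate 2, where 52.4 CPM remained without that cell. Col1a2 measured 1.17, 12.02 and 9.26 against 67.1, 304 and 115 CPM (log2 4.35 ± 0.64, edgeR adjusted p = 0.0299), again with 84.2% in 1 cell of mandible replicate 2. Col3a1 measured 0, 0.707 and 0.842 against 23.7, 13.5 and 22.1 CPM (log2 4.81 ± 0.58, edgeR adjusted p = 0.00820). The sites did not overlap for any of the 5 genes. The number of calls rested on single libraries, with 15 without femur replicate 1, 3 without femur replicate 2, 1 without femur replicate 3 and 3 without mandible replicate 3. These fits tested 6094 to 6476 genes. Amelx was called each time, while Ambn and Col1a1 lost their call without femur replicate 3 (edgeR adjusted p = 0.0587 and 0.0898). Col3a1 lost its call in 4 of the 6 fits that left out 1 library (edgeR adjusted p of 0.0624 to 0.196 in those 4) and Col1a2 in 3 of 6 (edgeR adjusted p of 0.0624 to 0.181). An alternative chosen after the data had been seen left the 1 cell richest in these genes out of each library. There edgeR called 6 of 5901 genes, all 5 among them.

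**Figure D5:**
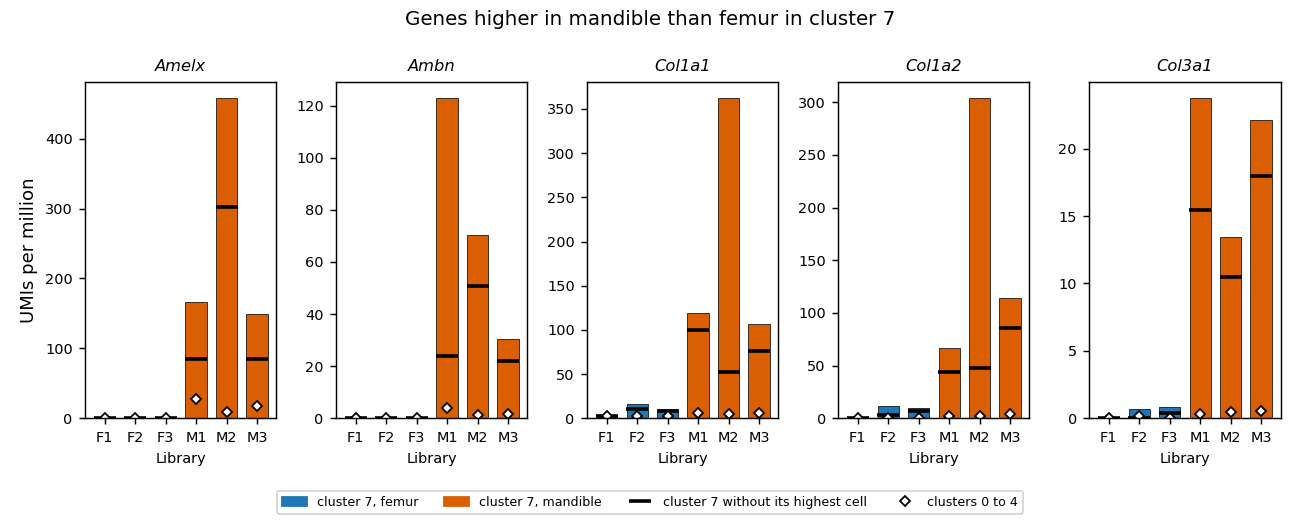
UMIs per 1000000 UMIs in cluster 7 for the 5 genes called between sites, in femur replicates 1 to 3 (F1 to F3, blue) and mandible replicates 1 to 3 (M1 to M3, orange), with black lines for the level without each library's highest cell and white diamonds for clusters 0 to 4. Amelx reaches 166, 458 and 149 CPM in mandible and 0 in femur, and clusters 0 to 4 have 27.2, 9.56 and 16.9 CPM in the same mandible libraries.

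These transcripts were not limited to cluster 7. Amelx stood at 27.2, 9.56 and 16.9 CPM in clusters 0 to 4 of mandible replicates 1 to 3, so that cluster 7 had 6.11, 47.9 and 8.84 times their level. It stood at 61.4, 13.03 and 1116 CPM in cluster 5, and at 33.2, 1.95 and 55.6 CPM in the B cells of cluster 6. With each cell thinned to 1000 UMIs, 5.32%, 12% and 5.83% of cluster 7 cells had an Amelx UMI, against 2.19%, 0.899% and 1.67% in clusters 0 to 4 and 1.00%, 0.254% and 1.95% in cluster 6. Before thinning, the share was 4%, 1.02% and 4.26% in cluster 6. In femur replicates 1 to 3, clusters 0 to 4 held 2, 3 and 1 Amelx UMIs, and cluster 5 had 0.189, 0.367 and 0.0994 CPM. The part of free RNA in these levels was not tested. The mandible cells of cluster 7 with an Amelx UMI were deeper and higher in mitochondrial share than those without, with no test made over cells. In medians, the 47 cells with such a UMI had 7943 UMIs, of which 9.31% were mitochondrial and 20.7% came from S100a8 and S100a9, and 45 of them (95.7%) matched clusters 0 to 4. The 252 cells without had 6182.5 UMIs with 7.45% and 19.6%, and 231 (91.7%) matched clusters 0 to 4. The 22 cells with 5 or more Amelx UMIs had 9672 UMIs, 9.77% mitochondrial and 22.7% from S100a8 and S100a9. Of these cells, 20 (90.9%) matched clusters 0 to 4. Collagen UMIs were in 97 mandible cells, and 27 cells had both.

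Whether the site difference was particular to cluster 7 was tested with limma on the difference in log2 CPM between cluster 7 and clusters 0 to 4 of a library. This called 0 of 5939 genes, and 259 (4.36%) had an unadjusted p below 0.05. Col1a1 had a log2 difference of 2.75 between the site effects (unadjusted p = 0.00518 and adjusted p = 0.999 by limma). It had only 3 UMIs in cluster 7 of femur replicate 1. For Amelx and Ambn, at 0 in the femur cells of cluster 7, this test depends on the prior count of 2 and is not read.

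The mitochondrial genes were not called between sites. Of 13 tested, 0 passed by edgeR or DESeq2 and 1 had an unadjusted p under 0.05, with 9 higher and 4 lower in mandible and a median log2 difference of 0.19, against -0.01 over all genes. That gene was mt-Cytb, with a log2 difference of 0.75 ± 0.24 (edgeR adjusted p = 0.651). The sites did not overlap for 4 of the 13 genes, with mt-Cytb, mt-Nd4 and mt-Nd1 higher and mt-Nd6 lower in mandible, against 10.7% of all genes tested. Outside the enamel list and the bone and odontoblast list, no list had a gene called by edgeR, and each had 0 to 3 genes with an unadjusted p below 0.05. In the enamel list 2 of 8 genes passed the filter on low counts, and both were called. At 0 UMIs in femur they passed only through the mandible libraries, so that share says nothing about the list. In the bone and odontoblast list 6 of 10 genes passed the filter, of which 3 were called and 6 were higher in mandible. Over all genes tested 0.0842% were called. The 3 called collagen genes were low in femur and passed through the mandible libraries, so these counts say nothing about the list either. In the list of Il1b-rich mature genes 10 of 12 were lower in mandible, with a median of -0.21 and 2 at an unadjusted p under 0.05. Il1b measured 1365 ± 176 CPM in femur and 649 ± 78.3 in mandible (SD, n = 3 each) with no overlap between sites, a log2 difference of -0.96 ± 0.20 with an edgeR adjusted p of 0.204. DESeq2, the alternative tool, called Il1b (adjusted p = 0.00269) and Fgl2 (adjusted p = 0.00132), both lower in mandible, and the gelatinase-stage collagenase Mmp8 (adjusted p = 0.0251), higher in mandible. It also called Pmaip1 of the apoptosis list and AY036118 of the nuclear-retained list, both lower in mandible, and Bglap, osteocalcin, of the bone list, which was higher (adjusted p = 0.0493, 0.0403 and 0.0247 by DESeq2). These calls depend on the tool.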

How the data were processed

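The matrices deposited by the authors hold unnormalised UMI counts for each gene in each barcode, from Cell Ranger (7.0.1 per the labels, 7.1.0 per the matrix header) on mm10. The strand setting and any doublet calling are not given in the sources used here. The table of kept cells deposited by the authors gives counts of UMIs and genes, the mitochondrial percent of each cell, and other values such as phase calls, cluster numbers and reference labels. Cells outside 600 to 6000 genes or above 20% mitochondrial UMIs had been dropped by the authors, who regressed the mitochondrial percent and the cell cycle difference in SCTransform and clustered integrated values in Seurat. The deposited cluster marker table holds the authors' fold changes and p-values and was not used.

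Raw counts of cluster 7 were summed per library and compared between sites with the edgeR 4.0.16 quasi-likelihood test (R 4.3.3, TMM, default filter on low counts, Benjamini-Hochberg over all tested genes, threshold 0.05, no covariate). limma 3.58.1 tested the site effect against clusters 0 to 4, and DESeq2 1.42.0 was an alternative. Exact permutation tests over 20 assignments were 2-sided (scipy 1.17.1). Matching used a multinomial likelihood with 1000 smoothing counts per profile. Ratios of single genes are means over libraries of log2 ratios with 1 per 1000000 added. The test scripts were tested on simulated data. The members, lists and tests were chosen with earlier results of these data known. Named genes were all mitochondrial genes, the stage and enamel lists, genes called between sites, the 10 highest and 10 lowest ratios, and up to 4 examples of each other list. Genes called by DESeq2 alone, and Mpo against the mix, were named after their values were seen. Depth of cluster 7 was 668375 to 2375267 UMIs per library. Intervals and limits cover counting error only. Alternatives were the normalization, filter, tool, libraries, blocks, reference cells and thinning.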

Additional observations from a re-analysis of the deposited data

Results flagged for a closer look

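Barcodes that the authors removed and that had a mitochondrial share of 20% or more are outside the comparisons above, except that of the mt-Co1 share. There were 573 of them, with a median of 880 UMIs and 155 genes. The 91 with over 600 genes had medians of 4539 UMIs and a mitochondrial share of 25.2%. Of these, 64 were closest to a profile of clusters 0 to 4 by their non-mitochondrial genes (70.3%, exact 95% interval 59.8% to 79.5%). They are given here because they lie beyond the limit that bounds cluster 7. Among kept cells, 60249 of 69776 lay in clusters 0 to 4, a larger share, and 93.3% of cluster 7 cells matched those clusters. Matching always assigns a profile, so a match alone does not show a neutrophil. The closest profile was cluster 1 for 51 (56.0%), cluster 5 for 25 (27.5%) and cluster 2 for 8. In kept cluster 7 cells the shares were 43.0%, 4.16% and 15.5%. No difference between these sets of cells was tested.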

How the results depend on the processing

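The count of genes called between sites depended on the choices. The 5 calls by edgeR were 0.0842% of 5939 genes tested. They became 20 of 5939 with DESeq2 (9 higher and 11 lower in mandible) and 13 of 5939 with a replicate-number block (8 and 5). With no filter on low counts there were 118 of 17321 (54 and 64). A library-number block gave 90 of 6614 (33 and 57), but it can use only the 4 libraries that share a number. Those 4 without a block, an alternative chosen after the data had been seen, gave 2 of 6614, Amelx and Ambn. All 5 genes were among the calls of each of the other 4 fits. They remained 5 with RLE normalization and without mitochondrial genes. With 1 library left out the count ran from 1 to 15, of 6094 to 6476 genes tested. The causes were not tested. Col3a1 lost its call without femur replicate 2, femur replicate 3, mandible replicate 1 or mandible replicate 3 (edgeR adjusted p 0.0624 to 0.196) and Col1a2 without femur replicate 2, femur replicate 3 or mandible replicate 3 (0.0624 to 0.181). The replicate numbers do not pair the libraries (correlations of deviations -0.018, -0.234 and 0.088), and the labels do not say what the shared library number marks (2 pairs, 0.219 and 0.147). No block or left-out library gave a call in the test of cluster 7 against clusters 0 to 4.

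Matched shares, mandible minus femur in percentage points, turned in sign with 1 library left out. They ran from -2.27 to 7.87 for cluster 0, -10.5 to 7.38 for cluster 1, -0.885 to 5.72 for cluster 2 and -1.46 to 2.10 for cluster 3, and the library-number block (4 libraries) gave -2.40 for cluster 2. With profiles from the other 5 libraries the differences were 1.67 for cluster 0, -16.1 for cluster 1 (-0.016 with own profiles), 10.2 for cluster 2 (1.99, exact permutation p = 0.1) and 9.26 for cluster 3 (0.632). By Pearson correlation 83.3% of the libraries were closest to clusters 1 to 3, against 67.0% of the cells by matching (63.6% to 72.5% with 1 library left out). The mitochondrial ratio against the mix was 3.79, against 3.54 for clusters 0 to 4 (3.50 to 3.58). The site difference in the share of cells ran from -0.235 to -0.102 and in the mitochondrial share from 0.437 to 1.43 points, and was 1.12 for the median over cells. Genes with few UMIs, or held by few cells, rest on little depth.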

Other observations

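At other clustering resolutions the cells stayed together in part. At resolution 0.05, 772 of the 890 formed a cluster of 772 cells, and at 0.5, 886 of them lay in a cluster of 900. At 0.075, 779 lay in a cluster of 1504 that also held 723 cells of cluster 5. At 0.15, 880 lay in a cluster of 1713 that also held 825 cells of cluster 5. These numbers come from the same integrated values and are not independent of the clustering at 0.1.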
